A study of Komagataella phaffii with 9 samples.

Results

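A set of 3 genes of the methylotrophic yeast *Komagataella phaffii* is described here, selected by identifier for the first handling of glucose by the cell. They are *HXK1* (PP7435_Chr1-1362, hexokinase), *GLK1* (PP7435_Chr4-0345, glucokinase) and *HGT2* (PP7435_Chr3-1219), 3 of the 5344 sequences counted. The annotation of *HGT2* does not say whether it senses glucose or transports it with high affinity, and likens it to *HGT2* of *Candida albicans* and *RGT2* of *Saccharomyces cerevisiae*. By their identifiers the genes lie on chromosomes 1, 4 and 3, and their coding lengths in the count tables are 1491, 1440 and 1509 bases.

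Glucose enters a yeast cell through transporters of the plasma membrane and is then phosphorylated to glucose 6-phosphate, which commits it to glycolysis, to the pentose phosphate pathway or to storage. Hexokinases phosphorylate glucose as well as fructose, whereas glucokinases act mainly on glucose. In *S. cerevisiae*, Rgt2 is a membrane protein related to the glucose transporters that senses external glucose and does not carry it, and a hexokinase isoenzyme also takes part in glucose repression.

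All 3 strains derive from *K. phaffii* CBS 7435 and carry an *egfp* reporter. The study's methods place it behind the promoter of glyceraldehyde-3-phosphate dehydrogenase, while its list of strains names the promoter by another label, so which form drives the reporter is not clear from them. The control strain carries the reporter alone, the second strain in addition overexpresses the *GAL4*-like transcription factor gene *CRA1*, and in the *Δcra1* strain that gene is deleted. The methods state that 1 transformant stood for a strain, so the spread among the 3 independent shake-flask cultures of each strain holds no difference between transformants. Cells were grown in YP with 25 μg/mL Zeocin at 25 °C, washed, moved to 20 mL of M2 medium with 5 g/L glucose and sampled in exponential growth, and poly(A)-enriched RNA was sequenced. The comparisons ask how the transcript levels of these genes differed when *CRA1* was raised or removed.

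The 9 libraries held 106343 to 223825 counts, with the 3 control libraries at the lower end (106343 to 108535). An absent count was taken to allow up to 3 counts, and so a share of up to 0.00134% to 0.00282% depending on the library. This limit, like all intervals on counts given here, covers counting error only. Before rounding, all counts of the 3 genes were whole numbers to within 1e-06 in every library. *CRA1* (PP7435_Chr1-1522) had 11 counts in each control library, reached 810, 95 and 316 in overexpression replicates 1, 2 and 3, and had none in any *Δcra1* library. The library labels were thus matched by the targeted gene, although its level in the overexpression strain ran from 862 to 4423 CPM (CPM, counts relative to the library's TMM-scaled size). The overexpression replicates also differed most among themselves over all genes, with a chi-square of 2.92 to 8.45 per degree of freedom for pairs of replicates, against 1.31 to 1.40 in the control and 1.56 to 2.27 in the *Δcra1* strain.

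Hexokinase transcript was higher than in the control in both engineered strains. *HXK1* had 8, 8 and 9 counts in control replicates 1, 2 and 3, which correspond to 30.9, 28.1 and 36.5 TPM (a level per length that adds up to a constant in each library). In the overexpression strain it had 138, 19 and 69 counts, or 263, 80.3 and 226 TPM, and in the *Δcra1* strain 29, 49 and 34 counts, or 62.0, 99.0 and 73.2 TPM. No library of either engineered strain overlapped with a control library, as was so for 15.7% of all genes tested in the overexpression comparison and 23.4% in the *Δcra1* comparison, in the same direction. Overexpression replicate 2 lay far below the other overexpression replicates and inside the range of the *Δcra1* strain. The means were 31.8 ± 4.27 TPM in the control, 190 ± 96.5 TPM with overexpressed *CRA1* and 78.1 ± 19.0 TPM without *CRA1* (SD, n = 3 each). On the TPM scale, *HXK1* stood above 52.5% to 56.1% of all sequences in the control libraries, above 67.0% to 87.4% in the overexpression libraries and above 62.5% to 71.8% in the *Δcra1* libraries.

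With overexpressed *CRA1*, *HXK1* was called higher than in the control at a log2 fold change of 2.75 (standard error 0.56), which is 6.72-fold (adjusted p = 0.019, quasi-likelihood test of edgeR, Benjamini-Hochberg adjusted over all genes tested). Called means past an adjusted p of 0.05 with a log2 fold change no smaller than 1 in either direction. In this comparison, 7.15% of the 1986 genes tested were called higher and 0.806% lower, and *HXK1* had the 41st highest log2 fold change. The call was lost, at an adjusted p of 0.067, 0.10, 0.090 and 0.058, when control replicate 1, 2 or 3 or overexpression replicate 3 was left out (same edgeR test, range over all alternatives 3.4e-06 to 0.20). In *Δcra1*, *HXK1* was also called higher than in the control, at a log2 fold change of 1.11 (standard error 0.36), which is 2.16-fold (adjusted p = 0.014, same edgeR test). Here 13.1% of the 2392 genes tested were called higher and 8.53% lower, and 282 genes had a higher log2 fold change than *HXK1*. This call lies close to the cutoff of 1 and was lost at an adjusted p of 0.065, 0.070, 0.053 and 0.083 without control replicate 1, 2 or 3 or *Δcra1* replicate 2 (same edgeR test, range 0.0020 to 0.14), and with DESeq2 at 1.04 (adjusted p = 0.10). Both comparisons use the same 3 control libraries, whose 8 to 9 counts set both fold changes. With *CRA1* overexpressed, *HXK1* was higher than in *Δcra1* by 1.42 on the log2 scale (standard error 0.41, adjusted p = 0.028, same edgeR test), but the libraries of these strains overlapped and the call was lost without any one library other than overexpression replicate 2.

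Glucokinase transcript was lower without *CRA1* and was not called different with *CRA1* overexpressed. *GLK1* had 20, 18 and 23 counts in control replicates 1, 2 and 3, or 80.8, 66.0 and 97.3 TPM. The *Δcra1* libraries held 10, 6 and 7 counts, or 22.4, 12.7 and 15.8 TPM, although they were about as large as the largest overexpression library. The overexpression libraries held 107, 13 and 60 counts, or 213, 57.3 and 206 TPM. All *Δcra1* libraries lay below all control libraries, as did 24.7% of the genes tested, whereas overexpression replicates 1 and 3 lay above the control and replicate 2 below it. The means were 81.3 ± 15.7 TPM in the control, 159 ± 87.8 TPM in the overexpression strain and 16.9 ± 4.96 TPM in the *Δcra1* strain (SD, n = 3 each).

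Deletion of *CRA1* went with a 5.41-fold lower level of *GLK1*, at a log2 fold change of −2.44 (standard error 0.37, adjusted p = 2.5e-06, same edgeR test). It had the 37th lowest log2 fold change of the 2392 genes tested, and the call held in all 15 alternatives that gave a value, among them each of the 6 in which a library was left out (adjusted p from 1.4e-08 to 0.019). With overexpressed *CRA1* the log2 fold change of *GLK1* was 1.15 (standard error 0.53, adjusted p = 0.17, same edgeR test, range 0.0023 to 0.59). Without overexpression replicate 2 it was called higher, at 1.50 (adjusted p = 0.0023), and without overexpression replicate 1 it was 0.66. In overexpression replicate 2 *GLK1* stood at 118 CPM with an exact 95% Poisson interval of 62.8 to 202 CPM, which spans part of the control range of 170 to 217 CPM. Between the overexpression and *Δcra1* strains, *GLK1* was called higher in the former at a log2 fold change of 3.37 (standard error 0.50, adjusted p = 3.2e-04, same edgeR test), with no overlap of the libraries, as for 19.4% of the genes tested. In this comparison, 9.8% of the 3071 genes tested were called higher and 5.67% lower.

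**Figure D1:**
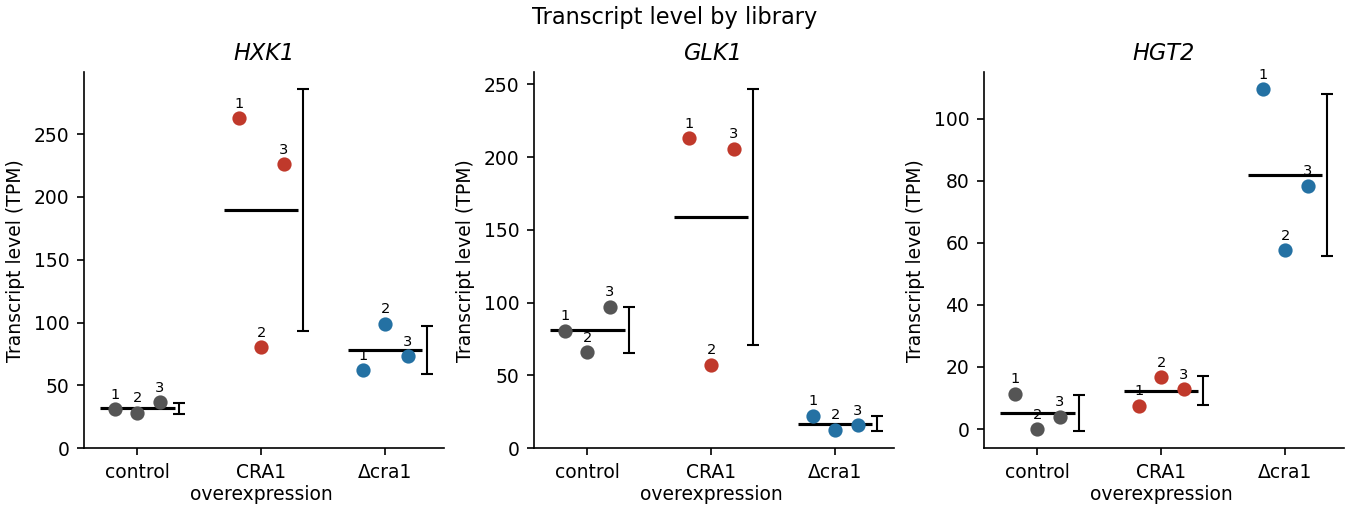
Transcript levels of *HXK1*, *GLK1* and *HGT2* in TPM on linear axes, 1 point per library with its replicate number, a horizontal line at the mean and an error bar of 1 SD (n = 3). *HXK1* is lowest in the 3 control libraries, *GLK1* is lowest in the 3 *Δcra1* libraries and *HGT2* is highest there, while overexpression replicate 2 lies apart from replicates 1 and 3 for both kinases.

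*HGT2* was near the limit of detection in the control and overexpression strains and clearly counted in *Δcra1*. It had 3, 0 and 1 counts in control replicates 1, 2 and 3, or 11.4, 0 and 3.99 TPM. Each overexpression library held 4 counts, which gave 7.50, 16.7 and 12.9 TPM. The *Δcra1* libraries held 52, 29 and 37 counts, or 109.5, 57.7 and 78.4 TPM, with no overlap with any library of the other strains. Against the control, 23.4% of the 2392 genes tested were higher in *Δcra1* without overlap, and 13.1% were called higher. The mean levels of *HGT2* were 5.14 ± 5.80 TPM, 12.4 ± 4.61 TPM and 81.9 ± 26.1 TPM in the control, overexpression and *Δcra1* strains (SD, n = 3 each). In control replicate 2, the absence of a count allows a level of up to 28.3 CPM, which is no lower than the level seen in overexpression replicate 1.

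The 118 counts of the *Δcra1* libraries against 4 in the control libraries gave a ratio of 14.0, scaled by library size, with an exact 95% counting interval of 5.34 to 52.4. Control replicate 1 held 3 of the 4 control counts, and without it the ratio was 37.0, whereas it was 9.41 without control replicate 2. *HGT2* was called higher in *Δcra1* (log2 fold change 3.75, standard error 0.56, adjusted p = 1.5e-06, same edgeR test), the 14th highest of the 2392 genes tested. With so few control counts the size of that fitted value depends on single control libraries, and it ran from 3.14 without control replicate 2 to 4.98 without control replicate 1. Against the overexpression strain, the same *Δcra1* libraries were called higher in *HGT2* too, at 118 against 12 counts. The corresponding log2 fold change, overexpression against *Δcra1*, was −2.68 (standard error 0.47, adjusted p = 0.0013, same edgeR test), the 25th lowest of 3071, and libraries without overlap in that direction were found for 16.6% of them. The ratio of scaled counts was 0.16 with an interval of 0.0801 to 0.289. Between overexpression and control, the 12 against 4 counts of *HGT2* were too few for the filter of the test. Their ratio of 2.24 has an interval of 0.679 to 9.53 and ran up to 5.90 with control replicate 1 left out and down to 1.50 with control replicate 2 left out, and the adjusted p was 0.60 without the filter (same edgeR test), so a difference was not detectable at this depth. In RNA from whole cultures, fewer cells that use a gene and less of its RNA per cell cannot be told apart.

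**Figure D2:**
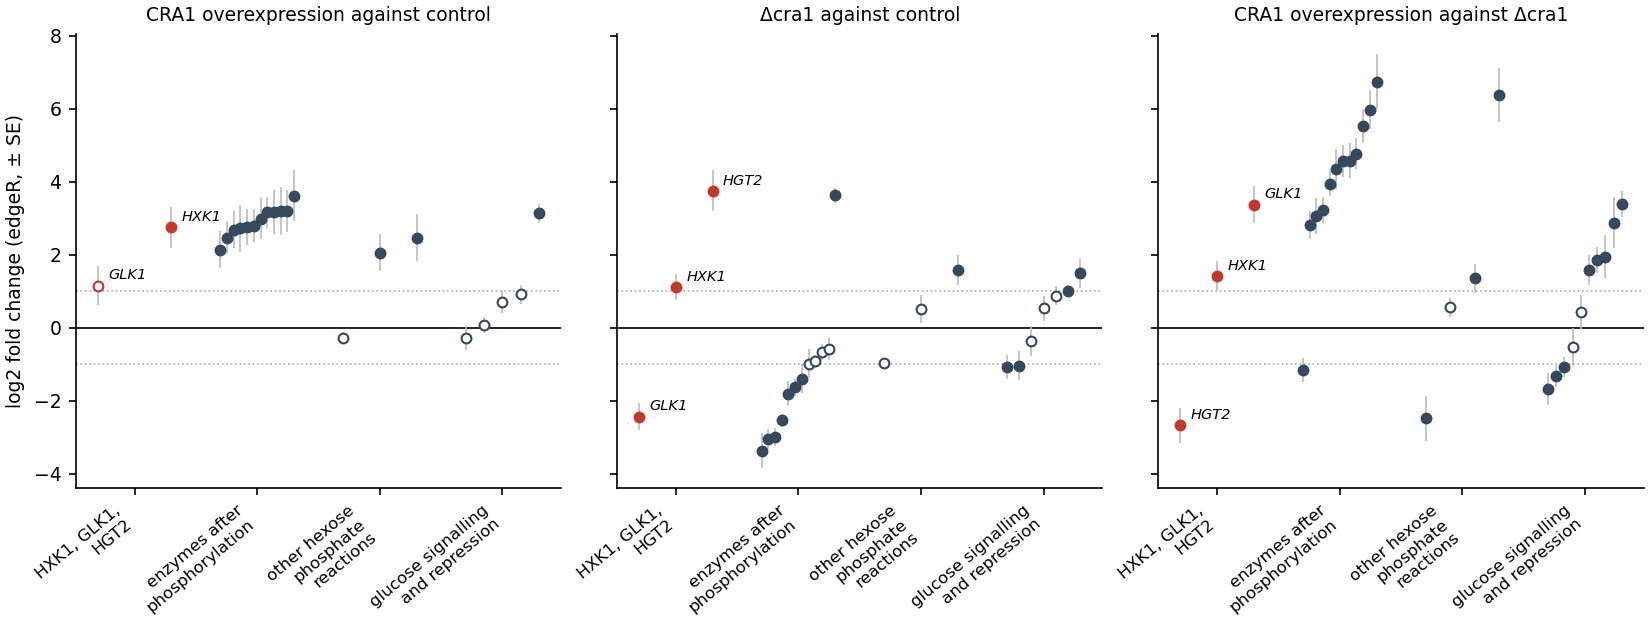
Log2 fold changes (edgeR, bars of 1 standard error) in the 3 comparisons for *HXK1*, *GLK1* and *HGT2* in red and for 3 lists of genes around them in dark blue, with filled points for called genes, open points for genes not called and dotted lines at a log2 fold change of 1 and −1. Among the 3 genes, *GLK1* alone follows the lower values of most enzymes after phosphorylation in *Δcra1*, while *HXK1* at 1.11 and *HGT2* at 3.75 lie above 0. *HGT2* is missing from the first panel because its counts were too few to test.

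The order of the levels differed between the strains. In each control library *GLK1* was the most abundant of the 3 transcripts, at 2.35 to 2.67 times the TPM of *HXK1*, and *HGT2* the least. With overexpressed *CRA1*, *HXK1* lay above *GLK1* in 3 of 3 libraries, but by no more than 1.10 to 1.40 times, and their ranges over libraries overlapped. *HGT2* stayed the lowest in each overexpression library. In *Δcra1*, *GLK1* was the lowest in 3 of 3 libraries, with *HXK1* at 2.77 to 7.81 times and *HGT2* at 4.55 to 4.98 times its TPM. *HGT2* exceeded *HXK1* in 2 of the 3 *Δcra1* libraries, and these neighbours overlapped.

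Added per length, the kinase transcripts had a higher mean level with overexpressed *CRA1*, and their composition differed among all 3 strains. *HXK1* and *GLK1* together amounted to 112, 94.0 and 134 TPM in control replicates 1, 2 and 3, to 476, 138 and 432 TPM in the overexpression strain and to 84.4, 112 and 88.9 TPM in *Δcra1*. In TPM the overexpression libraries all lay above the control libraries, with a ratio of the means of 3.08 (two-sided p = 0.1 by an exact permutation test, which can go no lower with 3 libraries against 3). The margin was thin, with 138 TPM in overexpression replicate 2 and 134 TPM in control replicate 3, from 32 counts each. The TMM-scaled size of the former was larger (110247 against 105799). In CPM the order of these libraries was therefore the reverse, and the strains overlapped. In *Δcra1* the ratio to the control was 0.84, and the libraries overlapped (exact permutation test, two-sided p = 0.2). The lower *GLK1* and the higher *HXK1* of *Δcra1* thus left a sum whose difference from the control was within the spread between replicates.

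*HXK1* made up 28.3% ± 1.39 of the kinase TPM in the control, 55.3% ± 2.98 in the overexpression strain and 81.5% ± 7.62 in the *Δcra1* strain (SD, n = 3 each). Individual libraries held 27.7%, 29.9% and 27.3% in the control, 55.2%, 58.3% and 52.4% with overexpressed *CRA1* and 73.5%, 88.7% and 82.3% without it. No 2 strains overlapped in this share, but how many other pairs of genes would separate the strains in this way was not examined. The difference from the control was 27.0 percentage points for overexpression and 53.2 for *Δcra1*, each at the smallest possible p of 0.1 (exact permutation test, two-sided, 3 libraries against 3). Overexpression replicate 2, which stood apart in the level of both genes, did not stand apart in the share, and without it the first difference was 25.5 percentage points. Taken by counts, the 95% Wilson interval of the share ran from 15.3% to 47.1% in control replicate 1, from 50.1% to 62.4% in overexpression replicate 1 and from 58.9% to 85.4% in *Δcra1* replicate 1. Within single libraries the intervals of neighbouring strains therefore touched in part, and the separation rests on the replicates.

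**Figure D3:**
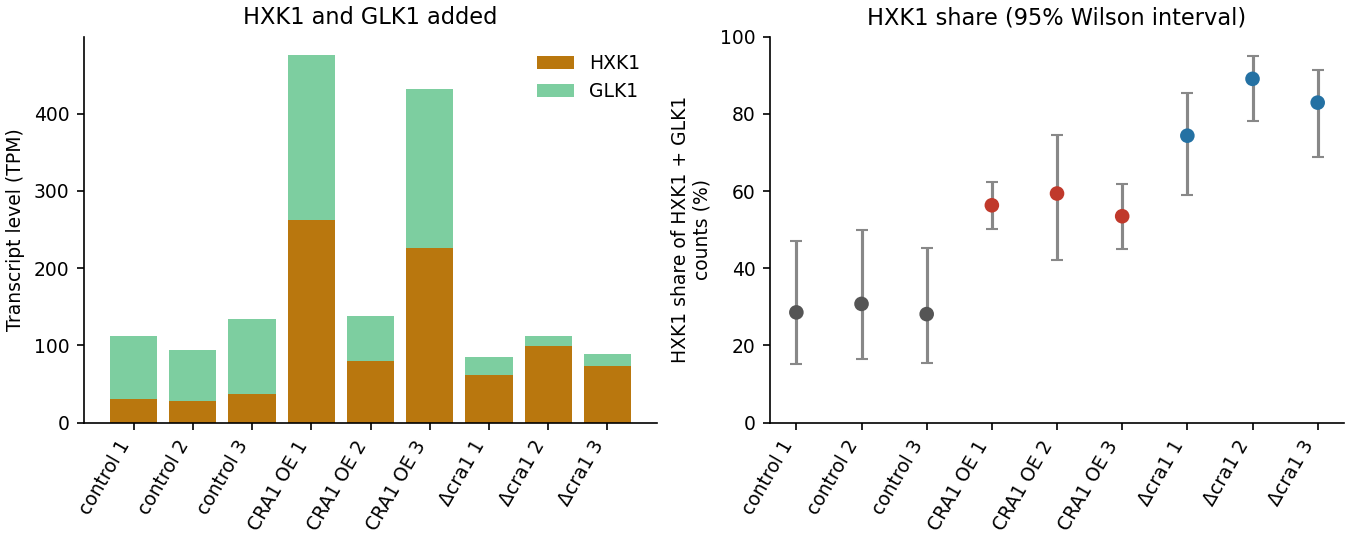
Left, stacked bars of the *HXK1* and *GLK1* levels in TPM for each of the 9 libraries, and right, the *HXK1* share of the counts of both genes in percent with its 95% Wilson interval (OE, overexpression). The summed level is highest in overexpression replicates 1 and 3, whereas the share rises from 28.1% to 30.8% in the control libraries to 53.5% to 59.4% with overexpressed *CRA1* and 74.4% to 89.1% in *Δcra1*.

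Within the overexpression strain, both kinases had the same order of libraries as *CRA1*. *CRA1* was at 4423, 862 and 2304 CPM in replicates 1, 2 and 3, *HXK1* at 754, 172 and 503 CPM and *GLK1* at 584, 118 and 438 CPM. *HGT2* had 21.8, 36.3 and 29.2 CPM in the same libraries, each from 4 counts. With 3 libraries of 1 strain this order is a description, and the total counts followed it too, at 213700, 114609 and 139065. Across the strains, *HXK1* did not keep this order, since the *Δcra1* libraries had 131, 235 and 139 CPM with no *CRA1* count and the control libraries 73.0, 75.4 and 85.1 CPM with *CRA1* at 100.4 to 104 CPM.

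**Figure D4:**
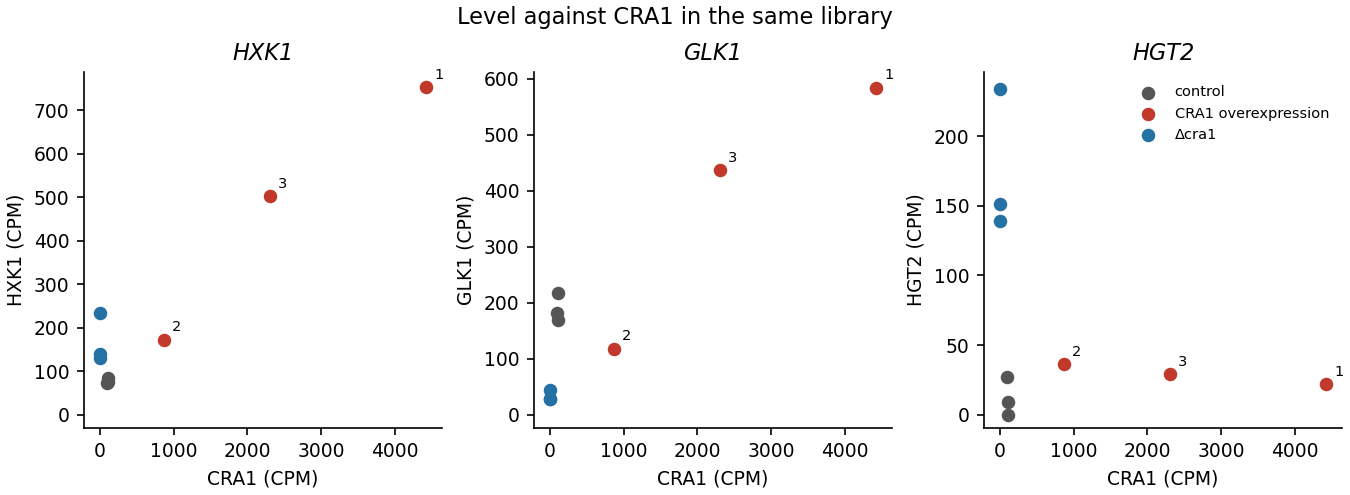
Level of *HXK1*, *GLK1* and *HGT2* against the level of *CRA1* in the same library, both in TMM-scaled CPM on linear axes, 1 point per library, with replicate numbers beside the overexpression libraries. *GLK1* is lowest where *CRA1* is at 0 and highest in overexpression replicates 1 and 3, *HXK1* is higher at a *CRA1* of 0 than in the control, and *HGT2* is high in the *Δcra1* libraries only.

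The enzymes that follow glucose phosphorylation on the way to ethanol were set beside these genes. Names for this list and the others came from a table of the study that names genes past its cutoffs in at least 1 comparison, so that the lists are selected for change and are no independent evidence of a direction. With overexpressed *CRA1*, 12 of 12 such enzymes were called higher, where 7.15% of all genes tested were. The median log2 fold change of the 12 was 2.90 against 0.02 over all genes tested. Their values ran from 2.14 for *PDC1* (pyruvate decarboxylase) to 3.62 for *GPM1* (phosphoglycerate mutase), so that *HXK1* at 2.75 lay inside this range and *GLK1* at 1.15 below it. Without overexpression replicate 1, *PDC1* was at 1.37 and *GPM1* at 2.57. Without control replicate 1, 2 or 3, the number of these enzymes called was 6, 1 or 2. In *Δcra1*, 7 of the 12 were called lower and 1 higher than in the control, where 8.53% and 13.1% of all genes tested were. The median of the 12 was −1.52 against 0.01 over all genes tested. The lowest was *GPM1* at −3.37, and *GLK1* at −2.44 lay inside the range of the 7. The enzyme called higher was *PFK1*, a subunit of phosphofructokinase, at 3.63 (standard error 0.20), at 276, 243 and 258 counts, where the control libraries held 11, 10 and 9. *HXK1* and *PFK1* thus both had positive log2 fold changes against the control in both engineered strains. Between overexpression and *Δcra1*, 11 of the enzymes were called higher, up to 6.74 for *GPM1*, and *PFK1* was called lower at −1.16. Of all genes tested in that comparison, 9.8% were called higher and 5.67% lower. The median of the enzymes was 4.46 against 0.08 over all genes tested. The call of *PFK1* there held in 1 of the 6 fits with a library left out, that without overexpression replicate 1 (−1.51, range −1.51 to −0.86).

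Of the genes for other reactions of hexose phosphates, *PMI40* (mannose 6-phosphate isomerase) and *DOG1* (2-deoxyglucose 6-phosphate phosphatase) were called higher with overexpressed *CRA1*, 2 of the 3 tested of 4. Their log2 fold changes were 2.06 and 2.47, and PP7435_Chr1-0815, similar to a glucose 6-phosphate epimerase of *S. cerevisiae*, had −0.28 and was not called. Neither call held without any single control library or without overexpression replicate 3. Of all genes tested with overexpressed *CRA1*, 7.15% were called higher. In *Δcra1*, 1 of 3 tested was called, *ZWF1* (glucose 6-phosphate dehydrogenase, the entry to the pentose phosphate pathway), higher at 1.58 (standard error 0.41), with 22, 34 and 38 counts against 6, 3 and 6. *PMI40* at 0.51 and PP7435_Chr1-0815 at −0.98 were not called in that comparison. Of the 4 genes tested between overexpression and *Δcra1*, *PMI40* at 1.35 and *DOG1* were called higher and *ZWF1* lower, at −2.49. Over all genes tested, 9.8% were called higher and 5.67% lower. The call of *PMI40* held only without overexpression replicate 2 among the 6 fits with a library left out. That of *ZWF1* was lost without *Δcra1* replicate 2 or 3 (adjusted p = 0.060 in each, same edgeR test, range over the 6 fits 0.0012 to 0.060), and its value was −4.00 without overexpression replicate 1. *DOG1* had 141, 14 and 63 counts in the overexpression libraries and 0, 2 and 1 in *Δcra1*.

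Of the 10 genes of glucose signalling and repression, 5 could be tested with overexpressed *CRA1* and 1 of these was called, higher, where 7.15% of all genes tested were. The median of the 5 was 0.70, against 0.02 over all genes tested. *SAK1*, in *S. cerevisiae* an activating kinase of Snf1, rose by 3.14 on the log2 scale (standard error 0.26, adjusted p = 2.9e-04, same edgeR test), with 86, 71 and 95 counts against 8, 7 and 8. Unlike both kinases of glucose, *SAK1* was not far lower in overexpression replicate 2 than in replicates 1 and 3. Its call held in all 16 alternatives. The gene with the sign opposite to *GLK1* there was *GRR1*, in *S. cerevisiae* an F-box protein of glucose signalling, at −0.28 and not called. In *Δcra1*, 7 were tested, 2 were called higher and 2 lower, where 13.1% and 8.53% of all genes tested were, and their median was 0.53 against 0.01 over all genes tested. *GLC7* (catalytic subunit of a type 1 protein phosphatase) at 1.49 and PP7435_Chr1-0450 (low similarity to *SNF1*) at 1.01 were the higher genes, and *CAT8-2* at −1.08 and *SSN3* at −1.04 the lower ones. The call of *SSN3* held in 2 of 15 alternatives, and among the 6 fits with a library left out only without *Δcra1* replicate 2. PP7435_Chr1-0450 fell under the cutoff of 1 without control replicate 2 or 3 or *Δcra1* replicate 2, *CAT8-2* without *Δcra1* replicate 2, and the call of *GLC7* was lost without control replicate 2. *CAT8* of *S. cerevisiae* activates genes of gluconeogenesis, and *SSN3* encodes a kinase of the Mediator complex. *GRR1* at 0.88 and *RIM15* at 0.53 had the sign of *HGT2* and not of *GLK1*, and neither was called. The count of 4 calls fell to 2 without control replicate 2 or without *Δcra1* replicate 2.

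Between the overexpression and *Δcra1* strains all 10 signalling genes were tested, 5 were called higher and 3 lower, where 9.8% and 5.67% of all genes tested were, and the median was 1.00 against 0.08 over all genes tested. *SAK1* was the highest at 3.39 and *RIM15*, in *S. cerevisiae* a protein kinase of nutrient signalling, the lowest at −1.68. Beside *RIM15*, the genes with a negative value were *GRR1* at −1.32 and PP7435_Chr1-0450 at −1.08, both called, and *MIG1-2*, named after a repressor of glucose-repressed genes, at −0.53 and not called. Without overexpression replicate 3 or any single *Δcra1* library, 4 genes were called. With a library left out, the call held in 4 of 6 fits for *RIM15*, lost without overexpression replicate 3 or *Δcra1* replicate 3, in 5 for *GRR1*, lost without *Δcra1* replicate 1, and for PP7435_Chr1-0450 only without overexpression replicate 2 or *Δcra1* replicate 3. The other gene of the sugar porter family that could be named, PP7435_Chr2-0548, is similar to a putative transporter of the vacuolar membrane of *S. cerevisiae*. It had 237 to 278 counts in the control libraries and a log2 fold change of −0.01 with overexpressed *CRA1*. In *Δcra1* it was called lower at −1.15, the sign opposite to that of *HGT2*, and without *Δcra1* replicate 3 it was −0.99. Between overexpression and *Δcra1* it was called higher at 1.01, close to the cutoff, but in 4 of 16 alternatives only, at 0.88 with library totals, and among the 6 fits with a library left out only without overexpression replicate 1.

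Scaling by library totals alone, in place of TMM factors, moved the median of all genes from 0.01 to 0.15 in *Δcra1* against the control, from 0.02 to −0.08 in overexpression against the control and from 0.08 to −0.05 in overexpression against *Δcra1*. The directions given above for *HXK1*, *GLK1* and *HGT2* held under it. The share of calls that were higher was 60.5% in *Δcra1* against the control with TMM factors, 72.2% with library totals and 49.4% with DESeq2. Between overexpression and *Δcra1* it was 63.4% with TMM factors and 50.5% with library totals.

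The 3 genes had different patterns over the 9 libraries. On the log2(CPM + 1) scale, Pearson's r over the 9 libraries was 0.38 between *HXK1* and *GLK1*, 0.25 between *HXK1* and *HGT2* and −0.60 between *GLK1* and *HGT2*. These values describe 9 libraries of 3 strains that share their depth and scaling, and they are given without a test. The same measure ranked the 1712 sequences with a mean of at least 20 counts by likeness to each gene. Nearest to *HXK1* were *RPP0* (ribosomal stalk protein, r = 0.956), *PMI40* (0.952), PP7435_Chr2-0842 (0.938), *IPP1* (cytosolic inorganic pyrophosphatase, 0.937) and *STM1* (ribosome-associated protein, 0.933). *RPP0*, for example, had 321 to 347 CPM in the control, 435 to 2561 CPM in the overexpression strain and 455 to 891 CPM in *Δcra1*, which repeats the order of the strain means of *HXK1*. Nearest to *GLK1* were *TPN1* (pyridoxine transporter, 0.964), *ADH2* (alcohol dehydrogenase, 0.947), the *egfp* reporter (0.943), *TDH3* (glyceraldehyde-3-phosphate dehydrogenase, 0.939) and *CRA1* itself (0.937). The reporter ran from 53.2 to 122 CPM in *Δcra1*, from 245 to 425 CPM in the control and from 653 to 1190 CPM with overexpressed *CRA1*. *CRA1* had an r of 0.438 with *HXK1* and ranked 389th there. Nearest to *HGT2* were *VTS1* (RNA-binding protein, 0.960), PP7435_Chr4-0586 (0.948), PP7435_Chr3-0957 (0.945), *CIN5-1* (bZIP transcription factor, 0.938) and *PRM10-2* (pheromone-regulated protein, 0.914). *VTS1* had 0 to 18.9 CPM in the control, 27.2 to 80.2 CPM with overexpressed *CRA1* and 892 to 1314 CPM in *Δcra1*. *HGT2* itself did not reach the mean count asked of the ranked sequences, with 0 to 4 counts in each control and overexpression library. All 5 genes nearest to it were also lowest in control replicate 2, where *HGT2* had no count, so their r rests in part on that library. With TPM, PP7435_Chr3-0957 ranked 22nd.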

How the data were processed

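RNA was sequenced from 3 cultures each of 3 strains, grouped by the sample labels. Per the labels and the study's methods, the authors trimmed reads with Trim Galore 0.4.2 and assigned them with kallisto (0.44.0 in the submitters' processing notes) to the CBS7435 annotation. A strand setting is not given in the sources used here. The deposited tables hold kallisto's estimated counts, without normalization, and the deposited TPM values, which are scaled for effective length and depth within a library. The authors also deposited 18 columns of counts divided by DESeq2 factors, which were not used.

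Estimated counts were rounded. Each pair of strains was tested over its 6 libraries with edgeR 4.0.16 in R 4.3.3 (filterByExpr, TMM factors, quasi-likelihood test, Benjamini-Hochberg adjustment over all genes tested). CPM values are TMM-scaled over 9 libraries, and the standard error is the absolute log2 fold change divided by the square root of F. Single values were compared with exact permutation tests (scipy 1.17.1). Alternatives were RLE factors, library totals, no filter, a filter at a mean of 20 counts, DESeq2 1.42.0 without and with length offsets, 1 fit over 9 libraries, limma 3.58.1 on log2(TPM + 1) and log2(TPM + 0.1) for a mean TPM of at least 1, a replicate block, and each library left out. Only the main edgeR test was tried on simulated counts.

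Gene names came from the study's supplementary table, which names 714 identifiers. The genes and lists were chosen with earlier results of these data known. Named are the 3 genes, *CRA1*, in each list the called genes with the highest and the lowest log2 fold change and those with a sign opposite to *GLK1*, and the 5 genes nearest in pattern to each of the 3. Further called genes of the short lists, *HXK1*'s r with *CRA1* and the replicate spread were added after the values were seen. Sequences and coordinates are not analysed here.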

Additional observations from a re-analysis of the deposited data

How the results depend on the processing

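*GLK1* against the control in *Δcra1* kept its call under all alternatives that gave a value, and a mean of at least 20 counts gave none. The call of *HXK1* with overexpressed *CRA1* was lost with limma on log2(TPM + 1) at 2.38 and on log2(TPM + 0.1) at 2.41 (2.21 to 3.07 with each library left out). That of *HXK1* in *Δcra1* was lost with DESeq2 at 1.04, with length offsets at 1.04, in 1 fit over 9 libraries at 1.09 and with limma at 1.25 and 1.27 (left out, 0.85 to 1.29). Between overexpression and *Δcra1*, *HXK1* lost its call with library totals at 1.31 and limma at 1.13 and 1.14 (left out, 1.05 to 1.75), *GLK1* with limma at 2.97 and 3.04, and *HGT2* with limma on log2(TPM + 0.1) at −2.74. *HGT2* in *Δcra1* lost its call with limma at 4.34 and 5.56. *GLK1* with overexpressed *CRA1* ran from 0.66 to 1.50 with each library left out. The causes were not tested.

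The genes called with overexpressed *CRA1*, 158, were 414 without a filter, 363 in 1 fit over 9 libraries and 69 and 83 with limma, and 44 to 574 with each library left out, the highest without overexpression replicate 2. In *Δcra1*, 517 became 299 at a mean of at least 20 counts and 323 and 299 with limma (left out, 415 to 558). Between overexpression and *Δcra1*, 475 became 138 and 111 with limma (left out, 282 to 775). With limma in both forms, 1 of the 12 enzymes after phosphorylation was called with overexpressed *CRA1* and 4 in *Δcra1*, in place of 12 and 8. Values near 0 changed sign without a call. PP7435_Chr1-0450 with overexpressed *CRA1*, at 0.07, was −0.02 with library totals, −0.17 without a filter, −0.16 with DESeq2 in both forms and −0.04 in 1 fit over 9 libraries (left out, −0.12 to 0.18). PP7435_Chr2-0548 there was 0.03 at a mean of at least 20 counts (left out, −0.17 to 0.07). *GLC7* between overexpression and *Δcra1*, at 0.42, was −0.09 with limma in both forms (left out, −0.40 to 0.79). Chosen after the values were seen, log2(TPM + 1) in place of CPM kept 4 of the 5 genes nearest to *HXK1*, 4 of 5 for *GLK1* and 3 of 5 for *HGT2*.

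The labels and methods do not say that the replicate numbers pair the samples, and the main tests treated the libraries as unpaired. Deviations of same-numbered libraries correlated at 0.23, 0.20 and 0.043 between overexpression and control, at −0.15, −0.040 and −0.10 between *Δcra1* and control and at −0.46, −0.20 and −0.033 between overexpression and *Δcra1*. In the first pair of strains each library correlated best with its own number, a hint from the data and not the design. With the replicate number as a block, 307, 503 and 373 genes were called in the comparisons in the order above, and *HXK1* between overexpression and *Δcra1* was no longer called (1.32). *HXK1* was 2.62 and 1.09, *GLK1* 1.00, −2.44 and 3.23 and *HGT2* 3.77 and −2.66 with the block, with no other call of these 3 genes changed.

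The depth of the control libraries, in which *HXK1* had at most 9 and *HGT2* at most 3 counts, limits the fold changes against the control.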
